A study of Homo sapiens with 30 samples.

Results

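The response to AZD8186 was compared between cell lines of both molecular subtypes of diffuse large B-cell lymphoma (DLBCL), an aggressive tumor of B lymphocytes. The germinal center B-cell-like (GCB) lines were HT and K422 and the activated B-cell-like (ABC) lines were OCI-Ly10 and TMD8. All 30 libraries of the series enter the comparison. Each AZD8186 library (0.5 µM) was paired with the DMSO library that matched it in line and time, which gave 15 pairs, 8 from GCB and 7 from ABC lines. Each line was harvested at 6, 12, 18 and 24 h, except that TMD8 has no 12 h libraries here. The sample labels give DMSO as the control, although the text describing the series speaks of untreated cells. Of 21112 genes in the files, 10203 passed a filter on low counts in both subtypes and were tested, while 762 passed it only in GCB and 1216 only in ABC libraries.

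As background, AZD8186 inhibits the β and δ isoforms of phosphoinositide 3-kinase (PI3K), a lipid kinase that makes the messenger PIP3 and thereby activates AKT and mTOR. In ABC DLBCL, chronic B-cell receptor signaling reaches the transcription factor NF-κB, whereas GCB tumors resemble germinal center B cells. AKT keeps FOXO transcription factors out of the nucleus, so that FOXO target genes commonly rise once PI3K is blocked.

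The lines matched their labels. All 16 ABC marker genes were lower in both GCB lines than in both ABC lines, and 12 of 16 GCB marker genes were higher in both, with the opposite order for 1, CREB3L2. Of 20 genes that mark T cells, myeloid cells and stroma, 8 stayed under 10 counts in every library, and their summed level ranged from 12.6 to 728 CPM (counts scaled to the library total) under AZD8186 and from 9.04 to 460 CPM under DMSO. The high end of that range was K422, where DCN, a proteoglycan of connective tissue, averaged 403 CPM and CD3G, a chain of the T-cell receptor complex, 77.3 CPM, both chosen after their values were seen. Total expected counts ranged from 15820230 to 23579029 per library. According to the paper's methods OCI-Ly10 and TMD8 were grown in Iscove's medium and HT and K422 in RPMI medium, while the labels give RPMI for all, so that medium and subtype cannot be told apart. Each subtype is represented by 2 established lines with 1 library for each line, treatment and time point. No source states separate cultures, so the p-values reflect only how far these libraries scatter, possibly for technical reasons, and do not extend to other lines of a subtype.

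The question was which genes responded differently, or in opposite directions, in the GCB and ABC lines. The difference is the log2 ratio of AZD8186 to DMSO in the GCB lines minus that in the ABC lines. It differed from 0 for 1542 genes by edgeR's quasi-likelihood test at an adjusted p under 0.05, which is 15.1% of those tested. It was positive for 828 genes (8.12%) and negative for 714 (7%), and at least 2-fold for 145 and 75 of them. On log2(TPM + 1) the median difference of all genes was 0.11, and 86.8% of the calls were positive, against 53.7% on TMM-normalized counts. In 1497 of the 1542 genes both GCB lines lay on the same side of both ABC lines, against 4652 (45.6%) of all tested genes. In 373 of the 1542 the ratios of the 8 GCB pairs did not overlap those of the 7 ABC pairs, against 375 (3.68%) of all tested genes. A gene called for this difference favors such separation, so both counts are descriptions.

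Genes with a difference fell into several patterns. AZD8186 raised 104 genes in GCB that it lowered in ABC (1.02% of those tested), and it lowered 97 genes in GCB that it raised in ABC (0.951%), together 201 genes (1.97%). The most frequent pattern was a rise in GCB without a change that passed in ABC, seen for 444 genes, followed by a fall in GCB without one in ABC, seen for 324. The counterparts were 208 genes that rose and 187 that fell in ABC and did not pass in GCB. Both subtypes rose for 80 genes and both fell for 64, by different amounts, and 34 genes passed in neither. The wording that a gene passed in one subtype only describes these tests, and the difference itself was tested for each gene counted here.

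**Figure D1:**
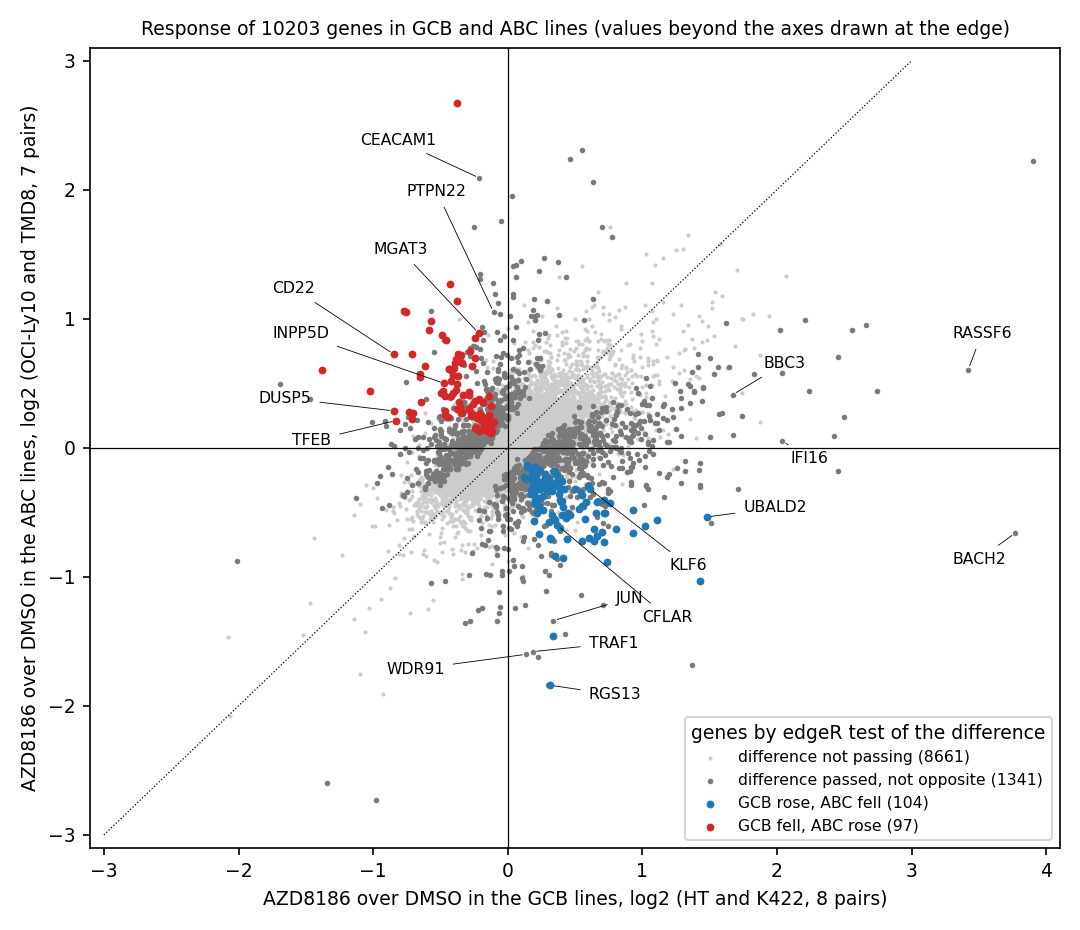
Log2 ratio of AZD8186 to DMSO in the GCB lines (x axis, 8 pairs) and in the ABC lines (y axis, 7 pairs) for the 10203 genes tested, one point per gene. The 104 blue genes rose in GCB and fell in ABC, the 97 red genes did the reverse, dark grey marks the other genes that differed, and the dotted line marks equal responses.

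Without HT 2268 genes differed and 221 went opposite ways, without K422 922 and 107, without OCI-Ly10 684 and 95, and without the 12 h pairs 843 and 106. A stricter question is whether a gene differed in every pairing of a GCB line with an ABC line. This was so for 51 genes (0.5%), of which 32 had a higher and 19 a lower response in GCB, and 27 went opposite ways. Leaving out 1 pair moved that count between 20 (OCI-Ly10 at 18 h) and 86 (K422 at 6 h). When the 4 lines were the replicates, 0 genes passed by limma on the mean log2 ratio of each line, and 1180 had an unadjusted p under 0.05.

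Among genes that rose in GCB and fell in ABC and averaged at least 5 CPM in every line, UBALD2 had the smallest p. Its log2 ratio ranged from 1.03 to 1.94 (median 1.47) in the 8 GCB pairs and from -1.01 to -0.02 (median -0.62) in the 7 ABC pairs, without overlap. Mean levels under AZD8186 and DMSO were 135 and 63.1 CPM in HT, 154 and 42.6 CPM in K422, 196 and 341 CPM in OCI-Ly10, and 342 and 387 CPM in TMD8. The difference was 2.01 (SE 0.18, edgeR adjusted p = 2.29e-06, and 6.22e-06 over every pairing of lines). OCI-Ly10 fell more than TMD8, and K422 rose more than HT, each by a difference that passed in edgeR.

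KLF6, a zinc finger transcription factor and FOXO target, had ratios between 0.32 and 0.85 (median 0.69) in GCB and between -0.45 and -0.14 (median -0.33) in ABC pairs. The difference was 0.93 (SE 0.0935, edgeR adjusted p = 5.68e-06), with all 8 GCB pairs above and all 7 ABC pairs below 0. CFLAR encodes c-FLIP, which blocks caspase-8 at death receptors and is induced by NF-κB. Its ratio lay between 0.16 and 0.57 (median 0.35) in GCB and between -1.42 and -0.38 (median -0.49) in ABC pairs, with a difference of 0.97 (SE 0.13, edgeR adjusted p = 9.45e-05). The lowest value came from TMD8 at 6 h and stood apart from the other 6 ABC pairs. In level, CFLAR averaged 45.4 CPM under AZD8186 and 36.7 CPM under DMSO in HT, against 401 and 562 CPM in OCI-Ly10, so that the line with less CFLAR was the one where it rose.

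JAK1, a kinase of cytokine receptors, had a mean ratio of 0.48 ± 0.23 (SD, n = 4) in HT and 0.53 ± 0.21 (n = 4) in K422, against -0.38 ± 0.06 (n = 4) in OCI-Ly10 and -0.24 ± 0.44 (n = 3) in TMD8. In both GCB lines its ratio was higher at each later time, whereas TMD8 had -0.74 at 6 h, -0.01 at 18 h and 0.04 at 24 h. The other genes named for this direction were PPP1R15A (difference 0.88), which directs a phosphatase to the translation factor eIF2α, KIF2A (0.61), a microtubule-depolymerizing kinesin, PEX2 (0.56), a peroxisome assembly protein, and C16orf87 (0.91). Of these, PEX2 had 1 GCB pair below 0 (-0.03, HT at 24 h), and none of the 4 had overlapping groups.

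In the reverse direction ARHGAP17, a GTPase-activating protein, had the smallest p under the same minimum. Its ratio ranged from -0.62 to -0.24 (median -0.36) in GCB and from 0.22 to 0.65 (median 0.55) in ABC pairs, with a difference of -0.87 (SE 0.0765, edgeR adjusted p = 2.11e-06). Levels under AZD8186 and DMSO averaged 31.5 and 39.8 CPM in HT, 24 and 31.9 CPM in K422, 334 and 239 CPM in OCI-Ly10, and 319 and 221 CPM in TMD8. Every GCB pair fell and every ABC pair rose.

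TFEB, the transcription factor that drives lysosome genes and that mTOR holds in the cytoplasm, had ratios from -1.06 to -0.60 (median -0.85) in GCB and from 0.01 to 0.51 (median 0.10) in ABC pairs. Its difference was -1.04 (SE 0.0982, edgeR adjusted p = 2.99e-06), and its rise in ABC came mainly from TMD8, with 0.41 ± 0.17 (SD, n = 3), against 0.06 ± 0.04 (n = 4) in OCI-Ly10. GM2A, a lysosomal cofactor of ganglioside breakdown, had a mean ratio of -0.59 in HT and -0.70 in K422, against 0.27 in OCI-Ly10 and 0.47 in TMD8 (SE of the difference 0.0923, adjusted p by edgeR = 2.44e-06).

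INPP5D encodes SHIP1, a phosphatase that converts PIP3 in blood cells. Its ratio ranged from -0.75 to -0.12 (median -0.48) in GCB and from 0.35 to 0.73 (median 0.51) in ABC pairs, with a difference of -0.97 (SE 0.0937, edgeR adjusted p = 3.46e-06). In K422 the ratio was -0.75 at 6 h and -0.12 at 24 h, so that the gap to the ABC lines was narrower at 24 h. DDIT4 encodes REDD1, an inhibitor of mTOR complex 1. Its ratio lay between -0.94 and -0.52 (median -0.75) in GCB and between -0.06 and 0.60 (median 0.32) in ABC pairs (difference -1.01, SE 0.10, edgeR adjusted p = 5.68e-06), and only TMD8 at 24 h was below 0 among the ABC pairs.

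MGAT3, an enzyme that adds the bisecting sugar to N-glycans, differed with an edgeR adjusted p of 6.48e-06, with mean ratios of -0.27 in HT and -0.16 in K422, against 0.71 in OCI-Ly10 and 1.33 in TMD8. CORO7, a coronin of the Golgi apparatus (-0.94), and DUSP5, a nuclear phosphatase of the MAP kinase ERK (-1.13), were lower in each of the 8 GCB pairs. In OCI-Ly10, however, they had mean ratios of only 0.02 and 0.03, against 0.49 and 0.60 in TMD8. The 16 genes of both directions were chosen for small p-values and separate line means, so the separation of their pairs is a description. Their differences passed on log2(TPM + 1) too, but not every call within a subtype did. On that scale the ABC ratio no longer passed for TFEB (0.0056, limma adjusted p = 0.955), CORO7 (0.01, 0.875), DDIT4 (0.07, 0.508), DUSP5 (0.07, 0.508) and GM2A (0.15, 0.148). The GCB ratio no longer passed for CFLAR (0.23, limma adjusted p = 0.0691) and PEX2 (0.11, 0.14).

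**Figure D2:**
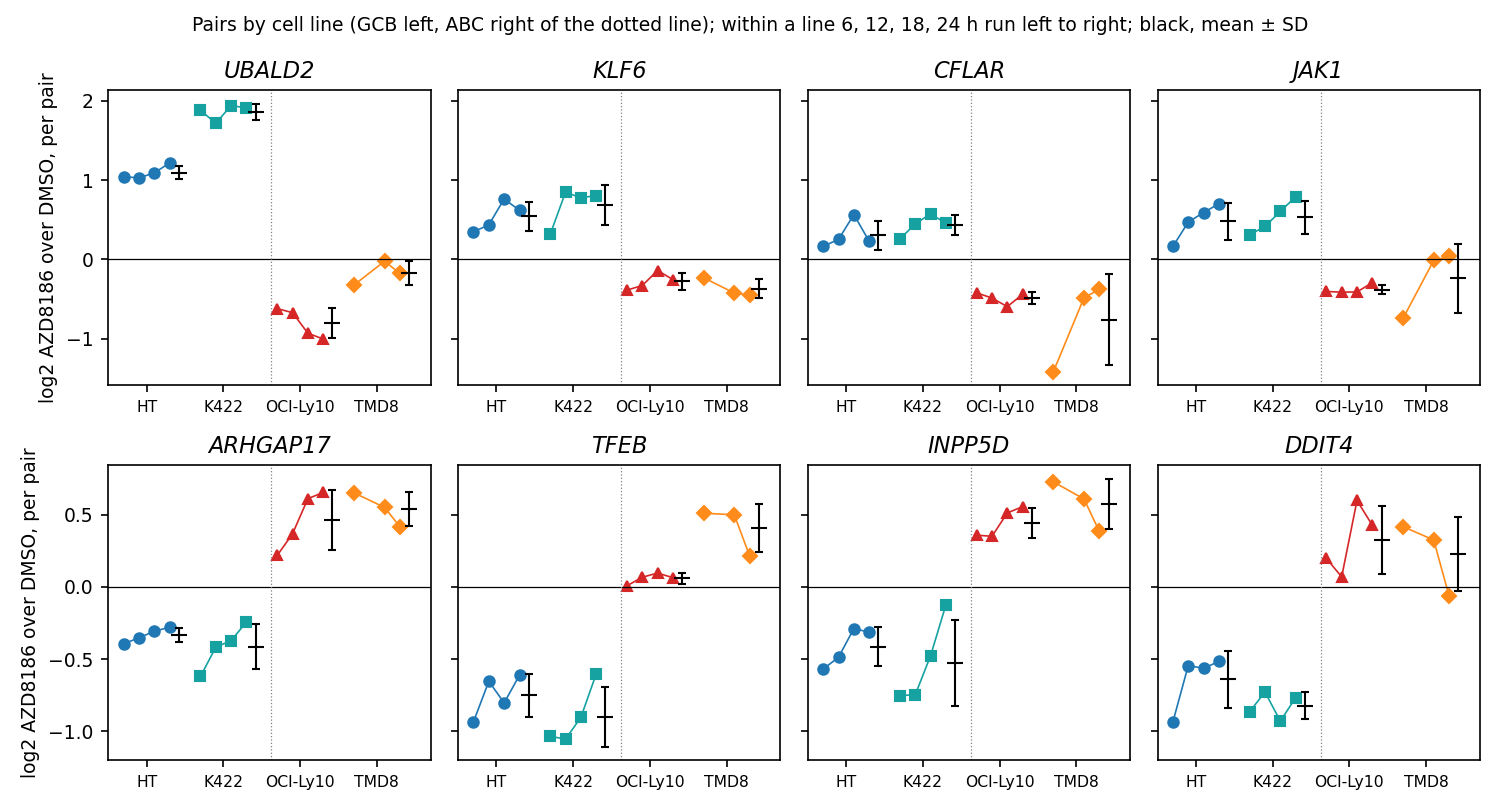
Log2 ratio of AZD8186 to DMSO for each pair, by cell line and with time running from 6 to 24 h within a line, for 4 genes that rose in GCB and fell in ABC (upper row) and 4 that did the reverse (lower row). Black bars give the mean and SD per line (n = 4, and 3 for TMD8), and in each gene the HT and K422 points lie apart from the OCI-Ly10 and TMD8 points.

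The bases upstream of the start site are shown for 6 of these genes, 3 of each direction, because they are the genes whose opposite responses are described above. They come from RefSeq's promoter table on GRCh38.p14, which held 8062 of the 10203 tested genes, and each covers the 250 bases before the first start listed. Capitals mark matches to the 6 motifs searched on both strands, which were the FOXO core GTAAACA, the E-box CACGTG, the AP-1 site TGANTCA, the CRE TGACGTCA, the sterol regulatory element TCACNCCAC and the κB consensus. UBALD2 and CFLAR hold a κB match and KLF6 an E-box.
UBALD2, chr17:76265098-76265347, plus strand: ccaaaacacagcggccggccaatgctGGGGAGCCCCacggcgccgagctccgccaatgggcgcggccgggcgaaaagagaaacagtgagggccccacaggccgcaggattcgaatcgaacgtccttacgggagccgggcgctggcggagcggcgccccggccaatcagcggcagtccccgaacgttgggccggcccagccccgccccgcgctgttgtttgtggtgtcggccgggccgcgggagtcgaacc
KLF6, chr10:3785210-3785459, minus strand: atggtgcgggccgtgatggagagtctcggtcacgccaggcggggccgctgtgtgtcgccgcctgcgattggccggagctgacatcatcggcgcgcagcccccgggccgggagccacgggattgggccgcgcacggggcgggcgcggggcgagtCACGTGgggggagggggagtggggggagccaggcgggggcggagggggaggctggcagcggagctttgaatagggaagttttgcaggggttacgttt
CFLAR, chr2:201118466-201118715, plus strand: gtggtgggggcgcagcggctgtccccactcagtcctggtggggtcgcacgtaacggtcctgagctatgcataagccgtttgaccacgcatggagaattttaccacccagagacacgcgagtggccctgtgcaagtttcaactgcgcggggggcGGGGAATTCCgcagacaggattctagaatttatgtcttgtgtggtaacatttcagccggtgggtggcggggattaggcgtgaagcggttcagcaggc
TFEB, chr6:41735609-41735858, minus strand: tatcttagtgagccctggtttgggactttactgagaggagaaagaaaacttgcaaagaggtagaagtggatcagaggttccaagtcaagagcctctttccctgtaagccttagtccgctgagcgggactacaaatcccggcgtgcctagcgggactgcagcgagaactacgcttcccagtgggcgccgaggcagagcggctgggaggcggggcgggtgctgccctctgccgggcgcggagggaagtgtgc
INPP5D, chr2:233060092-233060341, plus strand: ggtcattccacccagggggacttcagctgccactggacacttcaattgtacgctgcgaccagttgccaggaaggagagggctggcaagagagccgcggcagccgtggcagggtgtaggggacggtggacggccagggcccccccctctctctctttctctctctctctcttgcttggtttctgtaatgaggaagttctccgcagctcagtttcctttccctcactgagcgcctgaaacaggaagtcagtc
DDIT4, chr10:72273674-72273923, plus strand: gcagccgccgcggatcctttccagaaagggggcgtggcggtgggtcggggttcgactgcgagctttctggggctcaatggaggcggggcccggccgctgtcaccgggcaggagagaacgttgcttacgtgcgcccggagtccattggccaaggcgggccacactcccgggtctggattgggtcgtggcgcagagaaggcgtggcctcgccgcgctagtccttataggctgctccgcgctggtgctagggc

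The windows of TFEB, INPP5D and DDIT4 hold no match to the 6 motifs. In windows of the same length, the κB consensus was present in 5.73%, the E-box in 9.55%, AP-1 in 3.39%, the CRE in 3.14%, the FOXO core in 1.92% and the sterol regulatory element in 0.918% of the tested genes that the table held. Other genes named above were also searched where the table held them. Of those that rose in GCB and fell in ABC, PPP1R15A held a CRE, and JAK1, KIF2A and C16orf87 held no match. Of those with the reverse response, CORO7 held an E-box and GM2A no match. Of the 104 genes that rose in GCB and fell in ABC the table held 85, of which 9.41% had a κB match and 10.6% an E-box. It held only 74 of the 97 with the reverse response, of which 9.46% had a κB match and 13.5% an E-box. The 74 are under 80% of that class, so a comparison of both classes is void. A match describes the letters and is not a site shown to be used.

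Of 33 tested members of a list of NF-κB targets, 15 had a higher response in GCB than in ABC, 1 a lower one and 17 did not pass, which makes 48.5% that differed, against 15.1% of all genes. The median ratio of the list was 0.22 in GCB and -0.33 in ABC, and the median difference was 0.55, against 0.0013 over all genes. In GCB 10 members rose and 10 fell, against 23.1% of all genes that fell in GCB, whereas in ABC 1 rose and 18 fell, against 15.3% of all genes that fell in ABC. The one with a lower response in GCB was FAS, a death receptor, chosen after its values were seen (difference -0.78). Leaving out any 1 pair gave 14 to 16 higher members, and leaving out a line 10 to 14, with 10 higher and 3 lower without HT. Among 28 members in the promoter table, 9 held the κB consensus.

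TRAF1, an adaptor of TNF receptors that NF-κB induces, had ratios from -0.20 to 0.49 (median 0.17) in GCB and from -2.53 to -0.80 (median -1.47) in ABC pairs. It averaged 6.13 CPM under AZD8186 and 6.18 CPM under DMSO in HT, against 2.59 and 12.1 CPM in TMD8. The difference of 1.76 (SE 0.21, edgeR adjusted p = 2.85e-05) held in every pairing of lines (adjusted p = 0.00385). BCL2L1, which encodes the survival protein BCL-xL, had a median ratio of 0.71 in GCB (range 0.26 to 0.995) and of -0.46 in ABC pairs (range -1.16 to 0.19), a difference of 1.08 (SE 0.16, edgeR adjusted p = 0.000246). The GCB ratios of BCL2L1 were all above 0, and TMD8 at 18 h was the ABC pair above 0.

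Among genes of the IκB family, whose products regulate NF-κB, NFKBID differed by 1.85 (SE 0.31, edgeR adjusted p = 0.000645). NFKBIA differed by 0.88 (SE 0.21, edgeR adjusted p = 0.00719) and NFKBIE by 0.55 (SE 0.16, adjusted p = 0.0221). NFKBID was low in GCB, with 7 to 36 counts per library, against 92 to 798 counts in ABC libraries. None of the 3 passed without HT (adjusted p = 0.0826, 0.0573 and 0.177), and NFKBIA and NFKBIE did not pass without OCI-Ly10 either (0.055 and 0.149). The subunit genes RELA (0.03) and NFKB1 (0.48) did not pass. TNF had a log2 ratio of -2.06 in GCB and -2.08 in ABC and a difference of 0.02 (SE 0.53, edgeR adjusted p = 0.989), an estimate too imprecise to call the responses alike.

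Several NF-κB targets could not be compared because the GCB lines hardly expressed them. IL10, a cytokine, had 0 to 3 counts per GCB library under AZD8186 and 0 to 2 under DMSO, against 62 to 323 counts and 342 to 736 counts in ABC libraries. CD274, the checkpoint ligand PD-L1, had 0 to 9 counts under AZD8186 and 0 to 14 under DMSO in GCB, against 85 to 173 and 263 to 446 counts in ABC. IRF4, the transcription factor that marks ABC DLBCL, stayed at or under 2 counts under AZD8186 and 3 under DMSO in GCB libraries. IL6, CCL22 and SGK1, also named in the study, failed the filter in the same way.

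Of 7 tested AP-1 factors, which dimerize to drive growth and stress genes, 5 had a higher response in GCB and 0 a lower one, against 8.12% and 7% of all genes. JUN had ratios from -0.17 to 0.69 (median 0.39) in GCB and from -2.12 to -0.31 (median -1.50) in ABC pairs. Its difference was 1.68 (SE 0.25, edgeR adjusted p = 0.000245), and its median level was 5.42 CPM under AZD8186 and 4.07 CPM under DMSO in GCB libraries, against 17 and 47.5 CPM in ABC libraries. JUND rose in GCB (0.75) and had -0.35 in ABC, which did not pass, although its ABC fall passed on log2(TPM + 1) (-0.54, limma adjusted p = 0.00202). JUNB fell in both, by 0.29 in GCB and by 0.98 in ABC on the log2 scale, and its response was lower in K422 than in HT. Without OCI-Ly10, JUND no longer passed (difference 0.76, edgeR adjusted p = 0.0847), and 3 of 6 tested factors did.

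STAT3, which carries cytokine signals, differed by 1.19 (SE 0.20, edgeR adjusted p = 0.00063). It fell in ABC (-0.84) and rose in GCB (0.35), where K422 had 0.64 ± 0.43 (SD, n = 4) and HT 0.09 ± 0.20 (n = 4), and its rise in GCB no longer passed on log2(TPM + 1) (limma adjusted p = 0.0906). PIM2, a survival kinase and ABC marker, rose in GCB and did not pass in ABC. Its ratio was 0.12 to 1.66 (median 1.32) in GCB, with the lowest value in K422 at 6 h, and -0.60 to 0.05 (median -0.09) in ABC pairs. Levels of PIM2 averaged 74.9 CPM under AZD8186 and 29.6 CPM under DMSO in HT, against 447 and 515 CPM in OCI-Ly10. The difference was 1.41 (SE 0.16, edgeR adjusted p = 2.85e-05). On log2(TPM + 1) the fall of PIM2 in ABC passed as well (-0.40, limma adjusted p = 0.00518).

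IFI16, a sensor of DNA in the nucleus, showed the largest response among the genes named for a rise in GCB alone. Its ratio ranged from 1.55 to 3.05 (median 1.9) in GCB and from -0.02 to 0.27 (median 0.02) in ABC pairs. HT averaged 28.3 CPM under AZD8186 and 8.37 CPM under DMSO and K422 80.9 and 15.8 CPM, against 300 and 301 CPM in OCI-Ly10 and 263 and 240 CPM in TMD8. The difference was 1.98 (SE 0.17, edgeR adjusted p = 1.86e-06), and in K422 the ratio was higher at each later time. RIPOR2 (0.78), MRPS31 (0.53), a mitochondrial ribosomal protein, and SLC10A3 (0.64) followed the same pattern. On log2(TPM + 1) a fall in ABC passed for MRPS31 (-0.28, limma adjusted p = 0.000967) and SLC10A3 (-0.27, 0.00175), but not for RIPOR2 (-0.07, 0.45).

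Genes that fell in ABC and did not pass in GCB included WDR91, a regulator of endosome maturation. Its ratio was -0.14 to 0.42 (median 0.13) in GCB and -2.11 to -0.95 (median -1.6) in ABC pairs, and in OCI-Ly10 it averaged 9.20 CPM under AZD8186 and 33.4 CPM under DMSO. The difference was 1.74 (SE 0.17, edgeR adjusted p = 3.87e-06). AGFG2 (1.22), PHF19 (0.91), an accessory protein of Polycomb repressive complex 2, and MTMR14 (0.54), a phosphatase of phosphoinositides, had differences of the same sign. Their GCB and ABC pairs did not overlap, against 3.68% of all tested genes without overlap. These genes too were chosen for their pattern, small p-values and separate line means, so sign and separation are descriptions.

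PTPN22, a phosphatase that restrains antigen receptor signaling, rose in ABC and did not pass in GCB. It had ratios from -0.38 to 0.29 (median -0.10) in GCB and from 0.39 to 1.76 (median 1.17) in ABC pairs, a difference of -1.15 (SE 0.17, edgeR adjusted p = 0.0002). In TMD8 it averaged 13.8 CPM under AZD8186 and 5.98 CPM under DMSO. CLINT1 (-0.47), a clathrin adaptor, SNAP47 (-0.63) and PCDHGC3 (-0.76) shared this pattern, although reads of PCDHGC3 may be shared with other genes of the protocadherin gamma cluster, which overlap it.

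**Figure D3:**
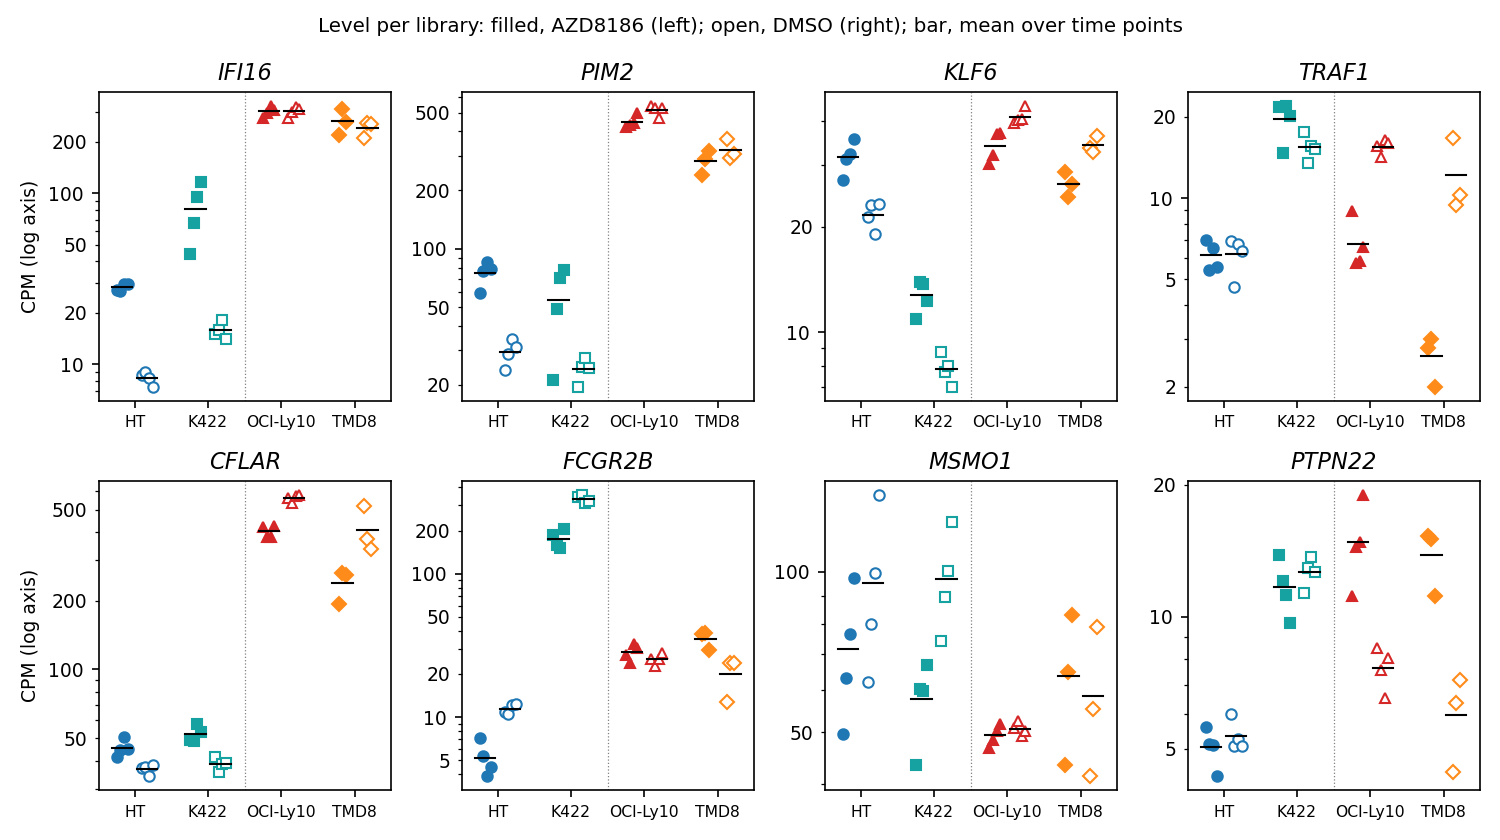
Level of 8 genes in CPM (log axis) in each library by cell line, with AZD8186 filled and on the left of DMSO (open) and the GCB lines left of the dotted line. Bars are means over the time points. IFI16, PIM2 and CFLAR are lower in the GCB lines than in the ABC lines under either treatment, and their levels approach each other under AZD8186.

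Levels under DMSO were compared with the direction of the response. Of the 104 genes that rose in GCB and fell in ABC, 47 (45.2%) had a lower DMSO level in both GCB lines than in both ABC lines, and 18 (17.3%) a higher one. Over all tested genes these shares were 25.3% and 24.8%. Of the 97 genes with the reverse response, 14 (14.4%) had a lower and 34 (35.1%) a higher DMSO level in both GCB lines. The DMSO libraries enter both the level and the ratio, so these shares are given without a test.

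Of 31 tested genes of B-cell receptor chains and signaling, 9 had a lower response in GCB than in ABC (29%, against 7% of all genes), 0 a higher one and 22 did not pass. Of the 31 tested members 5 went opposite ways, against 1.97% of all tested genes. CD22, a receptor that dampens B-cell receptor signals, had ratios from -1.57 to -0.41 (median -0.82) in GCB and from 0.15 to 1.57 (median 0.60) in ABC pairs, a difference of -1.57 (SE 0.22, edgeR adjusted p = 0.000119). It fell in each GCB pair and rose in each ABC pair. FCGR2B, the inhibitory Fc receptor of B cells, had a median ratio of -0.998 in GCB (range -1.63 to -0.60) and of 0.31 in ABC pairs (range 0.08 to 1.56), with a difference of -1.46 (SE 0.19, edgeR adjusted p = 9.27e-05). MS4A1, which encodes CD20, differed by -0.97 (SE 0.14, edgeR adjusted p = 0.0002) and averaged 17.2 CPM under AZD8186 and 29 CPM under DMSO in HT, against 889 and 642 CPM in TMD8. On log2(TPM + 1) 3 members were higher and 9 lower, and the ABC ratios of FCGR2B (0.23, limma adjusted p = 0.154) and MS4A1 (0.07, 0.64) no longer passed.

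Of 30 tested genes of sterol and fatty acid synthesis, 12 had a lower response in GCB (40%, against 7% of all genes), 0 a higher one and 18 did not pass. The median ratio of the list was -0.45 in GCB and -0.17 in ABC. MSMO1, an enzyme that demethylates sterols, had ratios from -0.89 to -0.32 (median -0.54) in GCB and from -0.12 to 0.23 (median 0.04) in ABC pairs (difference -0.60, SE 0.0907, edgeR adjusted p = 0.000277). LSS, which closes the rings of lanosterol, fell in GCB (-0.50) and rose in ABC (0.43). SCD, the desaturase that makes oleate, fell by 0.89 in GCB on the log2 scale and had -0.15 in ABC, which did not pass (difference -0.74, SE 0.14, edgeR adjusted p = 0.00142), and it fell more in K422 than in HT. The count of lower members was 20 without HT, 5 without K422, 5 without OCI-Ly10 and 8 without the 12 h pairs. On log2(TPM + 1) 5 members were lower and 1 higher, and the ABC ratio of LSS (0.22, limma adjusted p = 0.0621) no longer passed. The fall of SCD in ABC passed on that scale (-0.35, limma adjusted p = 0.0218).

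In the list of chaperones and genes of the unfolded protein response, 11 of 43 tested members were lower in GCB (25.6%, against 7% of all genes), 0 higher and 32 did not pass. HSP90B1 (-0.49), PDIA4 (-0.49) and XBP1 (-0.65), which encodes a transcription factor of the unfolded protein response, were among them. Their count was 17 without HT, 4 without K422, 3 without OCI-Ly10 and 4 without the 12 h pairs, and 4 on log2(TPM + 1). Of 87 MYC targets and ribosome assembly genes 10 were lower in GCB and 1 was higher, against 7% and 8.12% of all genes. Together 12.6% of the list differed, against 15.1% of all genes, and the difference was negative for 79 members (median -0.19). In GCB 79 fell and in ABC 64, against 23.1% and 15.3% of all genes. The count of lower members rested on single pairs, with 32 without TMD8 at 6 h and 3 without K422 at 12 h. It was 0 without K422 and 47 without HT. Among 79 cytosolic ribosomal proteins 1 differed, RPL35, and its call was lost without any of 11 of the pairs, while 10 differed without OCI-Ly10 at 6 h.

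**Figure D4:**
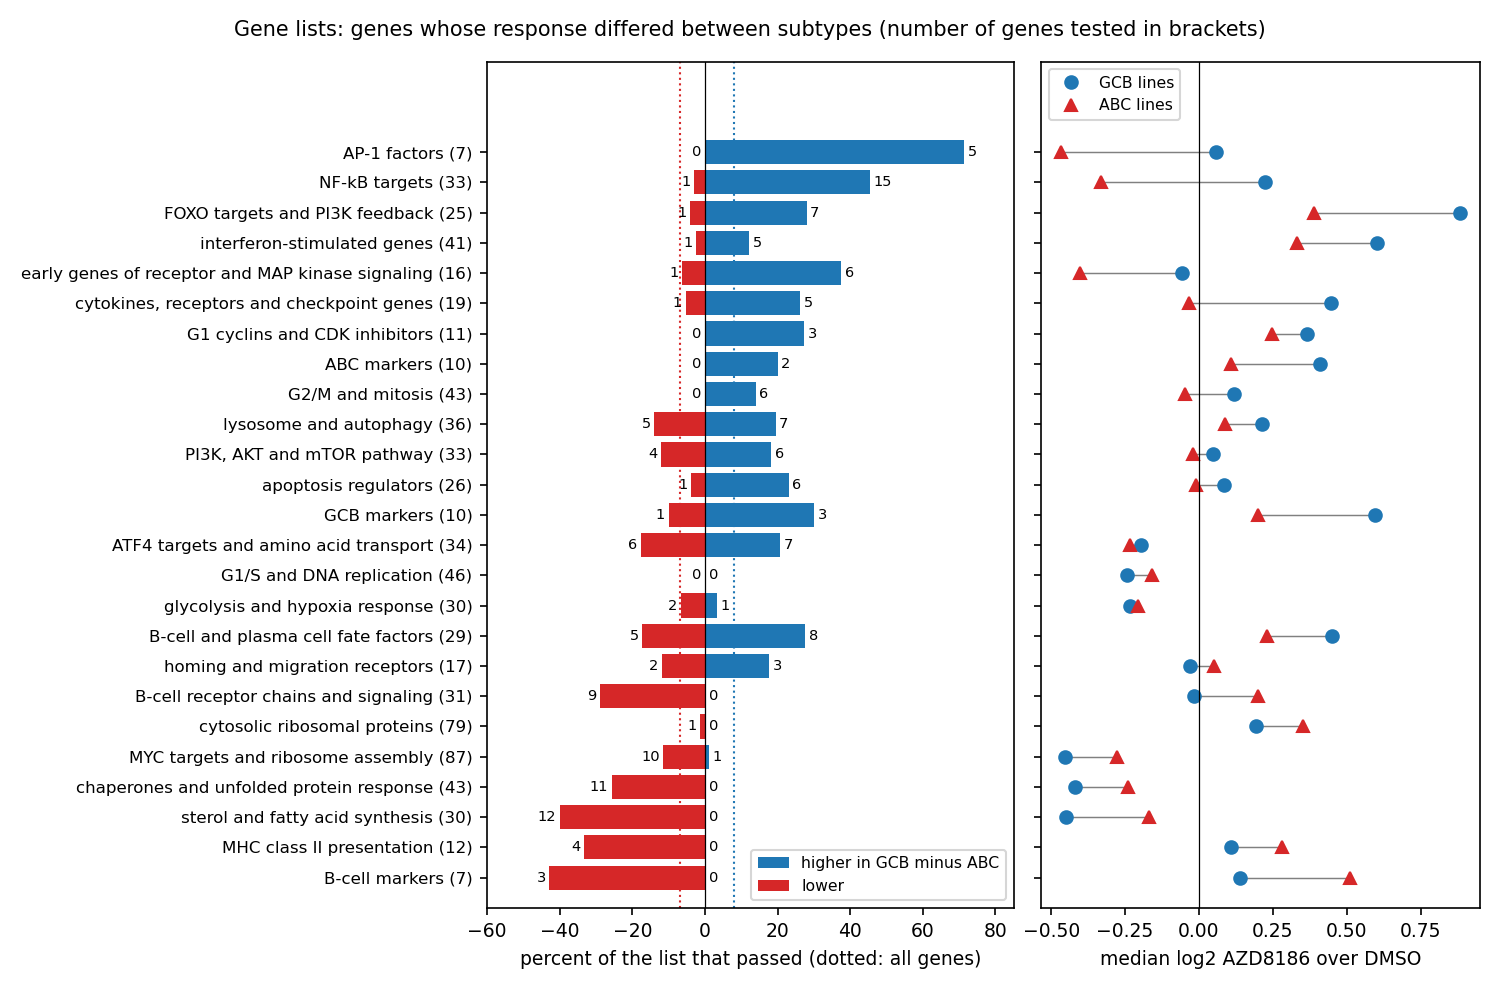
Left, percent of the tested genes of each list whose response was higher (blue) or lower (red) in GCB minus ABC, with the number of genes at each bar and dotted lines at the 8.12% and 7% of all genes. Right, median log2 ratio of AZD8186 to DMSO of each list in the GCB (circles) and ABC lines (triangles). NF-κB targets and AP-1 factors lie on the higher side, and sterol synthesis and B-cell receptor genes on the lower side.

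Of 25 tested FOXO targets and PI3K feedback genes, 20 rose in GCB and 16 in ABC, against 26.9% and 17.1% of all genes. The response was higher in GCB for 7 and lower for 1, against 8.12% and 7% of all genes, and 17 did not pass. CDKN1B, which encodes the cell cycle inhibitor p27, had ratios from 0.59 to 1.12 (median 0.90) in GCB and from 0.20 to 0.46 (median 0.25) in ABC pairs, a difference of 0.58 (SE 0.0866, edgeR adjusted p = 0.000246). FOXO1 itself differed by 0.98 (SE 0.17, edgeR adjusted p = 0.000978), with 1.67 ± 0.21 (SD, n = 4) in K422 and 0.90 ± 0.18 (n = 4) in HT, against 0.14 ± 0.07 (n = 4) in OCI-Ly10 and 0.56 ± 0.23 (n = 3) in TMD8. CCNG2, a cyclin that halts the cell cycle, rose in both (1.5 in GCB and 0.70 in ABC). The count of higher members was 13 without HT, 4 without K422 and 4 without OCI-Ly10.

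Of 26 apoptosis regulators 6 had a higher response in GCB and 1 a lower one, against 8.12% and 7% of all genes, and 19 did not pass. They included genes of opposite function. CFLAR and BCL2L1 protect cells, while BBC3, which encodes the death-inducing protein PUMA, rose by 1.67 in GCB and by 0.41 in ABC (difference 1.26, SE 0.18, edgeR adjusted p = 0.00022). In K422, however, BBC3 had only 12 to 25 counts per library under AZD8186 and 1 to 6 under DMSO. BIK, another death-inducing gene, fell in ABC (-1.84) and was nearly absent in K422, with a mean of 0.0505 CPM under AZD8186 and 0.0102 CPM under DMSO. BCL2 rose in both (1.35 in GCB and 0.47 in ABC), but its GCB estimate was that of K422, since HT hardly expressed it (0.302 CPM under AZD8186 and 0.295 CPM under DMSO). BCL2 was chosen after its values were seen.

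Of 29 tested fate factors of B cells and plasma cells, 8 were higher and 5 lower in GCB, against 8.12% and 7% of all genes, and 16 did not pass. BACH2, a repressor that holds back plasma cell differentiation, had ratios from 2.13 to 6.10 (median 3.26) in GCB and from -1.18 to 0.04 (median -0.49) in ABC pairs. In HT it averaged 49.6 CPM under AZD8186 and 6.97 CPM under DMSO and in K422 79.7 and 1.89 CPM, against 11.5 and 17.4 CPM in OCI-Ly10, and TMD8 hardly expressed it (0.044 and 0.0818 CPM). The difference was 4.43 (SE 0.57, edgeR adjusted p = 6.46e-05). TCF4 (0.72) and STAT3 were also higher, and SDC1, the plasma cell marker CD138, was lower (-1.99), a value that rests on K422 because HT hardly expressed it (0.0108 CPM under AZD8186 and 0.0118 CPM under DMSO).

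Of 33 genes of the PI3K, AKT and mTOR pathway 6 were higher and 4 lower in GCB, against 8.12% and 7% of all genes. However, 3 were higher without K422 at 12 or 18 h, OCI-Ly10 at 24 h or TMD8 at 18 or 24 h. Beside INPP5D and DDIT4, GAB2, an adaptor that recruits PI3K, had an edgeR difference of 1.62 (SE 0.268, adjusted p = 0.000567), with 1.34 in K422, 0.06 in HT, -0.83 in OCI-Ly10 and -0.95 in TMD8. The catalytic subunit genes did not pass, with a difference of 0.16 for PIK3CA, 0.10 for PIK3CB and 0.27 for PIK3CD. MYC (-0.10) did not pass. Its ratio lay between -0.33 and -0.08 in the GCB pairs. In ABC it was -1.36 in TMD8 at 6 h and between -0.06 and 0.18 in the other pairs. That pair lowered the ABC estimate of MYC and so made the negative difference smaller in size. Among amino acid genes SLC7A5, a leucine transporter, fell in GCB (-0.77) and had -0.0045 in ABC, which did not pass, whereas SLC1A5, a glutamine transporter, fell in both (-0.77 in GCB and -0.70 in ABC) with a difference of -0.07 that did not pass.

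GPT2, an aminotransferase, rose in GCB (0.55) and fell in ABC (-0.45), and CTH, which makes cysteine, did the same (0.26 and -0.48). In their list of ATF4 targets 7 of 34 were higher and 6 lower, against 8.12% and 7% of all genes. On log2(TPM + 1) the rise of CTH in GCB no longer passed (0.16, limma adjusted p = 0.0825). In the list of homing receptors, RGS13, a brake on chemokine receptors, rose in GCB (0.32) and fell in ABC (-1.84), and the GCB value no longer passed on log2(TPM + 1) (limma adjusted p = 0.161). CEACAM1, an adhesion receptor, rose in ABC (2.09) and had -0.21 in GCB, which did not pass. It averaged 1.71 CPM under AZD8186 and 2.16 CPM under DMSO in HT. The GCB value rests on HT, because K422 had only 0 to 4 counts of CEACAM1 under AZD8186 and 0 to 2 under DMSO. IFI30, a lysosomal reductase that prepares antigens, fell in GCB (-0.86) and had 0.03 in ABC. Of 12 genes of MHC class II presentation 4 were lower and 0 higher, against 7% and 8.12% of all genes, with 1 lower without TMD8. Like IFI30, GPAM (-0.59), which starts glycerolipid synthesis, TRAF4 (-0.75) and FAM53B (-0.59) fell in GCB without a change that passed in ABC.

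The share that differed was 0% in the G1/S and DNA replication list, 14% in G2/M, 14.6% in the interferon list and 10% in glycolysis. Over all genes 15.1% differed, 8.12% with a higher and 7% with a lower response in GCB. Of 46 genes of the G1/S transition and DNA replication, 0 passed in edgeR, 0 had an unadjusted p under 0.05 (3078 of all 10203 did) and 0 passed in DESeq2, but without HT 9 were lower, without OCI-Ly10 2 were lower and without K422 3 were higher. Of 41 interferon-stimulated genes 31 rose in GCB and 14 in ABC, against 26.9% and 17.1% of all genes. Of them 5 were higher in GCB and 1 lower, but without K422 at 18 h or without OCI-Ly10 0 were higher, and without TMD8 at 18 h 11. Of 43 G2/M genes 6 were higher, and between 3 and 11 when single pairs were left out (11 without TMD8 at 6 h). In glycolysis 1 of 30 genes was higher, NDRG1 (1.41), and 2 were lower.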

How the data were processed

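RNA of 4 DLBCL cell lines was sequenced after AZD8186 or DMSO. According to the paper's methods, HISAT2 alignment to the human transcriptome was followed by RSEM summation per gene. For these tools no version is given in the sources used here, and GRCh38.p12 is the build in the submitters' processing notes. The expected counts deposited by the authors are RSEM estimates without normalization. The TPM values deposited by the authors served for an alternative, and the FPKM values deposited by the authors were not used. RSEM divides reads among similar genes, so that values of near-identical genes are uncertain.

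Expected counts were rounded and filtered with filterByExpr within each subtype. After TMM normalization, edgeR 4.0.16 in R 4.3.3 fitted a quasi-likelihood model with the pair of cell line and time as a block. The pairing comes from the labels, and in all 15 pairs the AZD8186 library deviated most like its matched DMSO library (r 0.0642 to 0.462, 14 over 0.1). P-values were adjusted over all tested genes by Benjamini and Hochberg's method and called under 0.05. Each pair's ratio is a difference of log2 CPM at a prior count of 2. A gene differed in every pairing if the largest of its 4 p-values between a GCB and an ABC line passed. Scripts were tested on simulated data. The members, the 27 gene lists and the tests were chosen with earlier results of these data known. Named genes were the 8 smallest p in each opposite direction, the 5 smallest in each other one-sided pattern (both with at least 5 CPM in every line and separate line means), the 3 smallest among called genes of each list, and those the study names, of which a few are not reported here. RASSF6, CTDSP2, CD27, FOXO3, BCL2, FAS, DCN and CD3G were chosen after their values were seen. Alternatives included DESeq2 1.42.0, limma 3.58.1, other filters and scalings, and left-out pairs, lines and time points.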

Additional observations from a re-analysis of the deposited data

Results flagged for a closer look

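The response differed between the subtypes for 1542 genes by a test of the difference itself. Among 115 named genes that were tested, 230 groups of ratios (8 GCB or 7 ABC pairs) were examined for a pair far from the others, and 19 had one. Chance alone gives this in about 1 of 20 groups.

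TMD8 at 6 h was the distant pair in 12 of the 19. There the log2 ratio was lowest among ABC pairs for TNF (-3.86), NFKBIA (-1.89), CFLAR (-1.42), MYC (-1.36), CDK6 (-1.29), NOP16 (-1.14), TNFAIP3 (-1.06), CD40 (-1.05), TRIB3 (-0.907) and POLR1A (-0.347). It was highest there for FCGR2B (1.56) and CTSZ (0.881). TMD8 at 18 h was high for IFI16 (0.275) and OCI-Ly10 at 6 h low for IRF9 (-0.457). Among GCB pairs, K422 at 6 h was low for ARHGAP17 (-0.621), PIM2 (0.12) and SLC10A3 (0.354), and K422 at 24 h was high for BBC3 (3.16) and LGALS3BP (1.07). The BBC3 value came from 25 counts under AZD8186 and 1 under DMSO.

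Lines of 1 subtype also differed from each other by edgeR. K422 responded higher than HT, as a log2 difference, for BACH2 (2.43), GAB2 (1.35), CTDSP2 (1.08), FOXO3 (0.953), UBALD2 (0.767), FOXO1 (0.767), MYBL1 (0.678), CD27 (0.53), C16orf87 (0.472), ITPKB (0.437), BCL6 (0.397) and RGS13 (0.386). It responded lower than HT for TRIB3 (-0.836), NOP16 (-0.627), SCD (-0.586), LSS (-0.502), SURF6 (-0.451), TRAF4 (-0.441), SLC7A5 (-0.414), CTSZ (-0.397), EIF2S1 (-0.373), JUNB (-0.358), MSMO1 (-0.353) and PRMT5 (-0.302). TMD8 responded higher than OCI-Ly10 for UBALD2 (0.632), MGAT3 (0.625) and SLC7A5 (0.559), and lower for TRAF1 (-0.994) and FAM53B (-0.399).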

How the results depend on the processing

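Without the replicate block, which ignores the pairing, 1459 genes differed, 169 went opposite ways and 35 differed in every pairing of lines, against 1542, 201 and 51 with it. In the same order of counts, the counts were 922 and 107 without K422, 684 and 95 without OCI-Ly10, 843, 106 and 8 without the 12 h pairs, 171 and 28 at 6 and 12 h only, 797, 88 and 139 at 18 and 24 h only, 694, 69 and 16 at an adjusted p under 0.01, and 220, 63 and 31 with at least a 2-fold difference. With the 4 lines as replicates 0 genes passed by limma on the line means and 1180 had an unadjusted p under 0.05. Genes that differed in every pairing numbered 107 by DESeq2, 27 by limma-voom and 86 on log2(TPM + 1). Leaving out 1 pair gave 1154 to 1632, 153 to 199 and 20 to 86 genes. On log2(TPM + 1) 2004 genes differed, of which 1046 were among the 1542, and 76 of the 201 opposite genes were still called opposite. Both signs were kept by all 104 genes that rose in GCB and fell in ABC and by 82 of the 97 with the reverse. The cause of these shifts was not tested.

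Sign changes concerned genes that did not pass, and CD27. The difference became negative for TNF without HT (-0.12), TMD8 (-0.24) or the 12 h pairs (-0.085) and at 18 and 24 h (-0.22), for DUSP2 without HT (-0.035) and for PIK3CA without OCI-Ly10 (-0.052). It became positive for MYC on TPM with a pseudocount of 1 (0.040) or 0.1 (0.047), without OCI-Ly10 (0.093) and at 6 and 12 h (0.20), for SLC1A5 on TPM (0.063 and 0.062) and without K422 (0.21), for TFRC without K422 (0.0099) and at 6 and 12 h (0.066), for HSP90AA1 on TPM (0.020 and 0.021) and without K422 (0.14) or TMD8 (0.014), and for CD27 without OCI-Ly10 (0.28). Leaving out 1 pair gave -0.33 to 0.17 for TNF and -0.015 to 0.056 for RELA. Calls were lost without single pairs for RPL35 (11 pairs), ALDOC (11), CDK6 (10), FOXO3 (7), IRF9 (K422 at 18 h) and MYBL1 (TMD8 at 24 h). Low counts kept genes such as IL10 out of the test.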
